A study of Mus musculus with 20 samples.

Results

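The 44 collagen genes of the mouse, taken as the protein-coding genes whose symbol is Col, a number, a and a number, were examined for binding of ATF4. They lie on 15 chromosomes and were set against all 21631 protein-coding genes of the autosomes and X. ATF4, a bZIP factor, is the main transcriptional activator of the integrated stress response. It was mapped by CUT&Tag, an assay that tethers a transposase to an antibody-bound protein so that nearby DNA is cut, tagged and sequenced. The cells were wild-type C2C12 mouse myoblasts, an established line grown in medium with 10% serum, and they were treated for 6 h with 100 nM thapsigargin, an inhibitor of calcium uptake into the endoplasmic reticulum (ER), or with DMSO, the solvent. The series lists 20 samples in 10 groups of 2, of which the ATF4 thapsigargin and ATF4 DMSO groups are used here, each as 1 peak list of the authors with 8619 peaks for thapsigargin and 803 for DMSO. The lists hold positions without height or score, so there was no replicate error and no test, read depth is unknown, and the myoblast label could not be checked against marker genes.

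Collagens are the triple-helical proteins of the extracellular matrix. Fibrillar collagens give tissue its tensile strength, type IV forms the sheet of basement membranes, type VI builds microfibrils around cells, and fibril-associated collagens decorate the fibrils. In muscle they make up the connective tissue sheaths and the basement membrane around each fibre. Their chains are hydroxylated, folded and assembled in the ER, the organelle that thapsigargin disturbs, and leave it in large transport carriers.

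No collagen gene had an ATF4 peak at either end, whereas peaks inside the genes and around them were about as frequent as at other genes of their length. Within 1 kb of a gene end, 0 of 44 collagen genes had a thapsigargin peak centre and 0 of 44 had a DMSO one, against 15.1% and 1.29% of all protein-coding genes in the same lists. Inside the gene, over 1 kb from both ends, 11 of 44 had a thapsigargin peak (background 10.1% of all protein-coding genes) and 1 had a DMSO peak (background 1.30%). Outside the gene, from 1 to 50 kb, 17 had a thapsigargin peak (background 40.0%) and 3 had a DMSO peak (background 5.71%). At least 1 thapsigargin peak in any of these places was found for 24 collagen genes (background 51.1%), and at least 1 DMSO peak for 4 (background 8.01%).

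The map of the 44 genes shows these peaks in place. The 24 genes with a thapsigargin peak comprise 4 with peaks both inside and in the flank, 7 with peaks inside and none in the flank, and 13 with peaks in the flank and none inside.

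**Figure D1:**
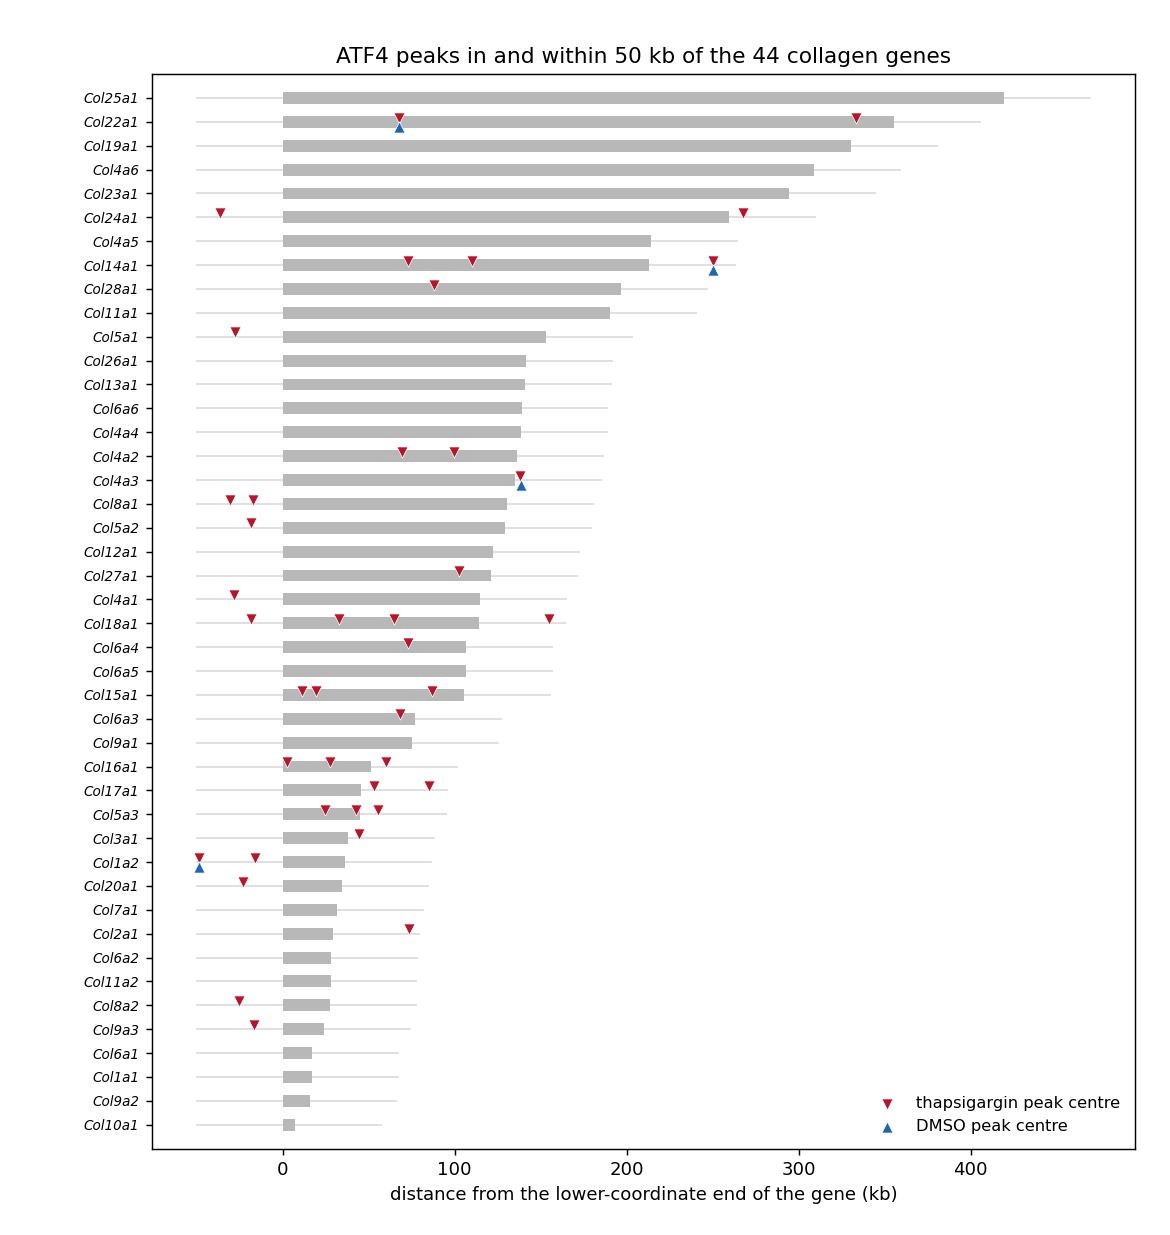
Each row is 1 of the 44 collagen genes, ordered by length, with the gene as a grey bar and 50 kb on each side as a thin line, on an axis of distance in kb from the lower-coordinate end. Red triangles mark centres of thapsigargin peaks and blue triangles those of DMSO peaks, and no triangle lies within 1 kb of a bar's end.

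The bases before the starts of 3 collagen genes are shown beside those of Chac1, a stress-induced gene of glutathione breakdown that carried an ATF4 peak over its start in both lists. Col1a2 was chosen as a chain of type I collagen, Col6a1 and Col24a1 as the collagen promoters that held a match to any motif searched, and Chac1 for its matches to the C/EBP-ATF composite letters. Each sequence runs from 250 bases before the start to the start base, 5′ to 3′, from RefSeq on GRCm38.p6, and capitals mark the motif matches.
Col1a2, chr6:4505368-4505618, plus strand: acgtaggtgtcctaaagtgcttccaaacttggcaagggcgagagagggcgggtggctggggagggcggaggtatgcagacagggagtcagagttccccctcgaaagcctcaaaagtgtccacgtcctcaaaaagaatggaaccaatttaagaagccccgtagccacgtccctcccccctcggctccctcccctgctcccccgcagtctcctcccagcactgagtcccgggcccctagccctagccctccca
Col6a1, chr10:76726044-76726294, minus strand: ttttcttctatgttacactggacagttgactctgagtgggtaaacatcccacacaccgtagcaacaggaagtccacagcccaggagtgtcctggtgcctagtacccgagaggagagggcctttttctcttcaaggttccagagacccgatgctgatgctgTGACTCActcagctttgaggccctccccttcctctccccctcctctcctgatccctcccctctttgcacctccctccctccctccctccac
Col24a1, chr3:145292222-145292472, plus strand: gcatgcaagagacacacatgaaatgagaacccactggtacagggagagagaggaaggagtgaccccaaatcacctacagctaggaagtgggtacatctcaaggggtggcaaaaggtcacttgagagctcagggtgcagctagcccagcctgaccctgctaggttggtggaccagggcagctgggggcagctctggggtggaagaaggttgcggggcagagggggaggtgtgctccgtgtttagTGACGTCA
Chac1, chr2:119350992-119351242, plus strand: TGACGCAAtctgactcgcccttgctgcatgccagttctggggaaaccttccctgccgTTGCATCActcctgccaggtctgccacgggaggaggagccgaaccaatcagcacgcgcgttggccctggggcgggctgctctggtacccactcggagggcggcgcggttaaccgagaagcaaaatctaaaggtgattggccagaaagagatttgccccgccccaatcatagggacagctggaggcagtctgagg
The Chac1 stretch holds the composite letters TTGCNTCA at 2 places, starting 250 and 193 bases before the start. No ATF4 peak of either list overlapped the 3 collagen stretches, while both lists had a peak over the Chac1 stretch. Asns, Trib3 and Ddit3 also had a peak over the same stretch in both lists, and none of the 3 held the composite letters there. Those peaks reached beyond the stretch onto bases that were not searched, and only these exact letters counted. It is therefore not shown that these 3 promoters lack a composite site.

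Promoters were searched on both strands over 300 bases, from 250 before to 50 after the start, and no motif's letters contain those of another. Of the 44 collagen genes, 35 had an entry in the promoter table, with 38 starts. Col1a1, Col2a1, Col4a3, Col5a2, Col9a3, Col12a1, Col14a1, Col22a1 and Col26a1 had none. The composite letters TTGCNTCA, to which ATF4 binds together with a C/EBP partner, were in 0 of 38 collagen promoters and in 3.48% of all 21045 promoters. For comparison, they were in 5.41% of the promoters of genes with a thapsigargin peak at an end and in 18.8% of those with a DMSO peak at an end. At shares of 3.48% or 5.41%, 38 promoters are too few to read 0 matches as a lack. The cAMP response element TGACGTCA was in 1 collagen promoter, that of Col24a1, where it ends on the start base, and in 2.26% of all promoters. The AP-1 letters TGANTCA were in 1, that of Col6a1, starting 90 bases before the start, and in 7.04% of all promoters. The C/EBP palindrome TTGCGCAA was in 0 and in 0.223% of all promoters. A match is a description of these letters and not a bound site.

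Collagen genes are long, with a median of 114 kb against 17.3 kb for all protein-coding genes, and 26 of 44 (59.1%) reach 100 kb, against 11.2% of all. The counts were therefore set against the shares of protein-coding genes of the same length, in 5 classes with edges at 10, 30, 100 and 300 kb. At those shares, 6.94 collagen genes would have a thapsigargin peak at an end, where 0 were found. For the gene body the same sum came to 11.4 genes where 11 were found, and for the flank to 16.6 where 17 were found. The count of 0 at the ends was known before and prompted the choice of this family, so it is a description and carries no interval. The Wilson interval (95%) of the body share of 25.0% runs from 14.6% to 39.4%, around the 26.0% of the length classes, and that of the flank share of 38.6% from 25.7% to 53.4%, around 37.6%. These intervals cover counting error only.

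In DMSO the lack at gene ends cannot be seen at this number of peaks, since the length classes would give 0.404 genes there. They would give 1.60 genes with a DMSO peak in the body, where 1 was found, and 2.18 in the flank, where 3 were found.

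**Figure D2:**
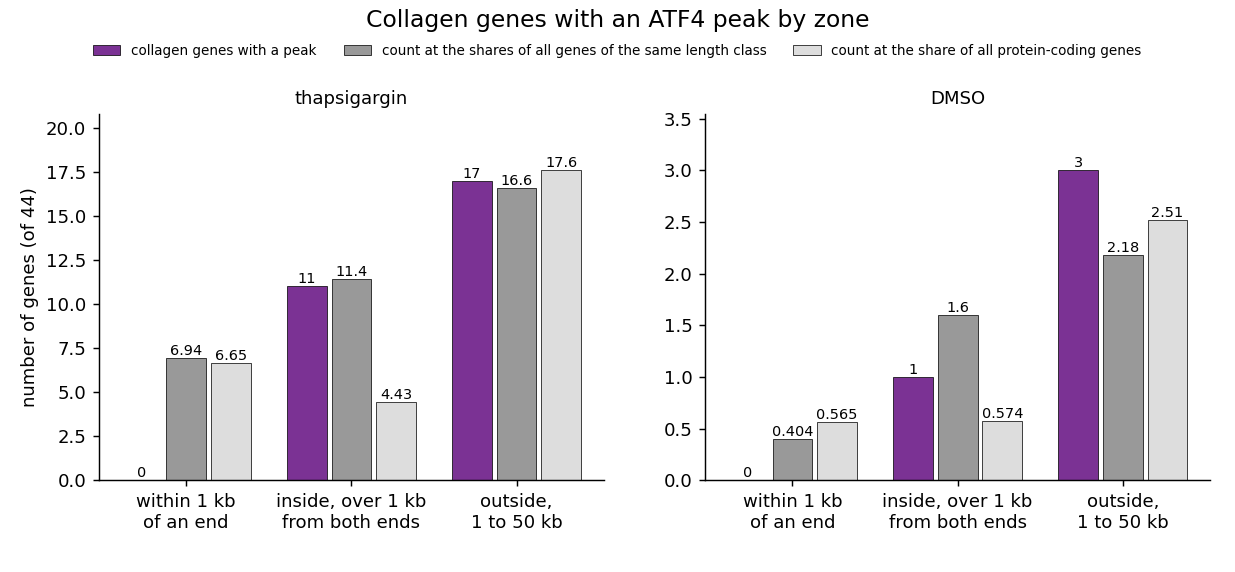
Bars give the number of collagen genes, of 44, with an ATF4 peak in each zone (purple), beside the count at the shares of all genes of the same length class (dark grey) and at the share of all protein-coding genes (light grey), with thapsigargin on the left and DMSO on the right and a separate axis for each. At gene ends the purple bar is 0 in both, and in thapsigargin the body bar of 11 stands level with the length class bar of 11.4.

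Density along the gene restates the same peaks per Mb and is no separate check of the counts. The bodies of the 44 genes, without 1 kb at each end, covered 5.36 Mb and held 19 thapsigargin peaks, or 3.55 peaks per Mb (exact Poisson interval 2.14 to 5.54, counting error only), against 3.04 per Mb in the bodies of all protein-coding genes. At the densities of their length classes the same bodies would hold 16.3 peaks, a ratio of 1.16. The flanks held 21 thapsigargin peaks in 4.22 Mb, or 4.98 per Mb (3.08 to 7.61), against 5.21 per Mb for all genes. The stretches within 1 kb of the ends, 0.172 Mb in all, held 0 peaks, against 35.0 per Mb at the ends of all protein-coding genes. In DMSO the bodies held 1 peak, or 0.187 per Mb (0.00473 to 1.04), against 0.294 per Mb for all genes, and the flanks 3 peaks, or 0.711 per Mb (0.147 to 2.08), against 0.515 per Mb.

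By length class, the 22 collagen genes of 100 to 300 kb had a thapsigargin peak at an end in 0 cases (15.2% of all genes of that length), in the body in 7 (35.0%) and in the flank in 8 (36.4%). The 9 genes of 30 to 100 kb had one in the body in 3 cases (15.7% of all genes of that length) and in the flank in 6 (41.9%), and their 5 body peaks lay in 0.416 Mb, or 12.0 peaks per Mb, against 3.62 per Mb for all genes of that length. These 5 peaks belong to Col5a3, Col16a1 and Col6a3. Over all 18 collagen genes under 100 kb they gave 8.45 per Mb (exact Poisson interval 2.75 to 19.7, counting error only). All protein-coding genes under 100 kb had 3.74 per Mb, inside that interval. The interval takes in the collagen genes under 30 kb, which had no body peak. None was computed for the genes of 30 to 100 kb alone, so their 12.0 per Mb is not covered by it. The 8 genes of 10 to 30 kb had one in the body in 0 cases (6.18%) and in the flank in 3 (46.2%). Of the 4 genes over 300 kb, 1 had a body peak (45.6%) and 0 had a flank peak (18.3%).

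Counts by distance from the gene ends are cumulative, so the 0 at the ends carries into each wider distance. They do not show how far from the ends a lack of peaks reaches. Within 2 kb of a gene end, inside or outside the gene, 0 of 44 had a thapsigargin peak centre, where the length classes would give 7.89. Within 5 kb 3 did (9.61 at the length class shares), within 10 kb 7 (12.0), within 20 kb 14 (16.1), within 50 kb 23 (23.6) and within 100 kb 30 (30.2). The nearest thapsigargin peak was at a median of 40.7 kb from an end, against 49.7 kb for all protein-coding genes, and the nearest DMSO peak at 902 kb, against 844 kb.

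**Figure D3:**
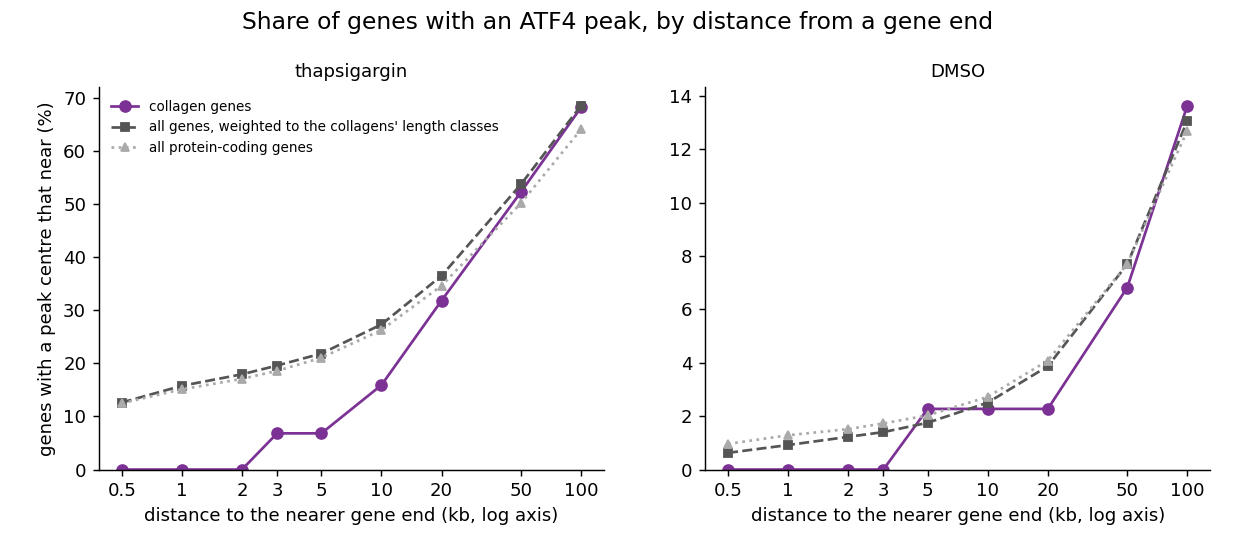
Lines give the percentage of genes with an ATF4 peak centre within a given distance of the nearer gene end (log axis, kb), for collagen genes (purple), all genes weighted to the collagens' length classes (dark dashes) and all protein-coding genes (light dots), with thapsigargin on the left and DMSO on the right. The purple line for thapsigargin is at 0 up to 2 kb and reaches 52.3% at 50 kb, where the weighted line is at 53.7%.

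The 3 thapsigargin peaks nearest to a collagen gene end were centred 2.49 to 2.93 kb from it, outside the window of 1 kb. At Col5a3, a chain of the fibrillar type V collagen (chromosome 9, 20770050 to 20815117, mm10), the peak from 20812236 to 20813024 was 789 bp wide and centred 2.49 kb inside the gene, 2.44 kb downstream of the listed start. At Col16a1, a fibril-associated collagen (chromosome 4, 130047817 to 130099277), the peak from 130049988 to 130051077 was 1090 bp wide and centred 2.69 kb downstream of the start. Both peaks thus lay inside the gene near its 5′ end. At Col4a3 the peak was centred 2.93 kb outside the gene, but 0.098 kb from an end of Mff, which encodes a mitochondrial fission factor.

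The 11 fibrillar collagen genes had thapsigargin peaks in the body of 2 and in the flank of 7, and a DMSO peak in the flank of 1. Their length classes would give 2.41 genes for the body and 4.46 for the flank in thapsigargin, and 0.598 for the flank in DMSO. At Col1a2, which encodes a chain of type I collagen (chromosome 6, 4505618 to 4541543), there were 2 thapsigargin peaks upstream of the gene. The nearer, from 4488567 to 4489825, was 1259 bp wide and centred 16.4 kb before the start. The farther, from 4456233 to 4457912, had a width of 1680 bp in thapsigargin and overlapped a DMSO peak of 1075 bp from 4456440 to 4457514, both centred near the 50 kb limit, at 48.5 kb in thapsigargin and 48.6 kb in DMSO. Col1a2 was the nearest protein-coding gene to both sites. Its partner chain gene Col1a1 had none within 50 kb, the nearest thapsigargin peak being 56.3 kb from an end.

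Col3a1 and Col5a2, neighbours on chromosome 1 that encode chains of the fibrillar types III and V, shared 1 thapsigargin peak between them. It spanned 45355220 to 45357086, was 1867 bp wide, which is the 95.9th percentile of width in its list, and was centred 6.45 kb downstream of Col3a1 and 18.2 kb from Col5a2. Col24a1 had the widest peak of the family, 2746 bp, on chromosome 3 from 145254579 to 145257324, centred 36.5 kb upstream of its start, and another of 817 bp 8.01 kb downstream of its end. Col5a3 had a body peak of 511 bp besides the one near its start, and a flank peak of 616 bp inside its neighbour Rdh8. Col27a1 had 1 body peak of 859 bp, centred 101 kb from its start. Col5a1 had 1 peak of 911 bp, 27.6 kb upstream, and Col2a1, the cartilage collagen gene, 1 flank peak of 1194 bp that lay inside Senp1. Col11a1 and Col11a2, which encode chains of the cartilage fibril type XI, had none within 50 kb, and for Col11a2 the nearest thapsigargin peak was 52.8 kb away.

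Of the 6 type IV genes, which encode the chains of basement membranes and lie in head-to-head pairs, 1 had body peaks and 2 had flank peaks in thapsigargin, where their length classes would give 2.205 and 2.001. Col4a2 (chromosome 8, 11312805 to 11449287) had 2 body peaks, 1263 bp wide from 11381627 to 11382889 and 1502 bp wide from 11411490 to 11412991, centred 69.5 and 99.4 kb from its start. Col4a1, whose start lies beside that of Col4a2, had none in its body and 1 of 1175 bp 28.4 kb downstream of its end. The starts of this pair are thus a shared stretch without a peak. The Col4a3 flank peak at Mff spanned 1093 bp with thapsigargin and 635 bp with DMSO. Its pair partner Col4a4 had none within 50 kb in either list, nor had Col4a5 and Col4a6 on the X chromosome, whose nearest thapsigargin peaks were 518 and 209 kb from an end.

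Among the 6 genes of type VI collagen, Col6a3 had a body peak of 1250 bp (chromosome 1, 90834286 to 90835535), centred 9.06 kb from its start, and Col6a4 had one of 1145 bp (chromosome 9, 106062303 to 106063447), 33.8 kb from its start. These 2 genes compare with 1.33 at the length class shares for the body, and the 0 genes with a flank peak with 2.43. Col6a1, Col6a2, Col6a5 and Col6a6 had none within 50 kb. The anchoring fibril gene Col7a1 had none either. Of the 3 short chain collagens of types VIII and X, Col8a1 had 2 flank peaks of 821 and 1094 bp and Col8a2 had 1 of 1488 bp, while Col10a1 of growth plate cartilage had none.

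The 9 fibril-associated collagen genes had thapsigargin peaks in the body of 3 and in the flank of 4, where their length classes would give 2.21 and 3.27. Col22a1, which encodes a collagen of muscle-tendon junctions (chromosome 15, 71795795 to 72150979), held the family's DMSO body peak. The thapsigargin peak there spanned 71862668 to 71863909 (1242 bp) and the DMSO peak 71862777 to 71863802 (1026 bp). A second body peak of 1021 bp was in the thapsigargin list and had no DMSO overlap. Col14a1 had 2 body peaks in thapsigargin, 1660 bp wide from 55379546 to 55381205 and 1272 bp wide from 55416876 to 55418147. Its flank peak, with widths of 1722 bp in the thapsigargin list and 1284 bp in the DMSO list, was centred at an end of Mtbp. Col16a1 had a second body peak of 711 bp, and a flank peak of 627 bp at an end of Pef1. Col9a3 and Col20a1 had 1 flank peak each, of 1845 and 932 bp. Col9a1, Col9a2, Col12a1 and Col19a1 had none within 50 kb, and the neighbours Col9a1 and Col19a1 lay 3093 and 3173 kb from the nearest thapsigargin peak.

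Both multiplexin genes, which encode the basement membrane zone collagens XV and XVIII, had body peaks, where their length classes would give 0.699 genes. Col15a1 (chromosome 4, 47207655 to 47313167) had 3, the most of any collagen gene, with widths of 1408, 1096 and 854 bp and centres 11.0, 19.1 and 86.3 kb from its start. Col18a1 (chromosome 10, 77052178 to 77166530) has 2 listed starts. Its peak from 77116397 to 77117181, 785 bp wide, was centred 3.08 kb upstream of the inner start, and a second one of 706 bp lay 29.0 kb downstream of that start. Its 2 flank peaks were 1355 and 1081 bp wide, and the first lay inside Slc19a1. Of the 4 transmembrane collagen genes, Col17a1 had 2 upstream peaks of 1539 and 1345 bp, 7.23 and 39.2 kb from its start, and Col13a1, Col23a1 and Col25a1 had none within 50 kb. Col28a1 had 1 body peak of 664 bp, and Col26a1 had none.

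Body peaks were in 0 of the 9 collagen genes under 30 kb and in 11 of the 35 longer ones. The shortest gene with a thapsigargin body peak was Col5a3 at 45.1 kb, and the 13 shorter genes had none. Of the 5 longest genes, 1 had a body peak, Col22a1. Among all protein-coding genes a body peak was in 0.995% of those under 10 kb and 6.18% of those of 10 to 30 kb. The shares were 15.7% at 30 to 100 kb, 35.0% at 100 to 300 kb and 45.6% over 300 kb. Few body peaks in short genes are thus the background. The 20 genes without a peak in any zone had none in either list, and for 14 of them the nearest thapsigargin peak was over 100 kb from a gene end.

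Some flank peaks lay at the ends of other genes, in a share near that of the whole list. Of its 8619 thapsigargin peaks, 2739 were within 1 kb of a protein-coding gene end. Of the 21 distinct thapsigargin flank peaks, 7 (33.3%) lay at another protein-coding gene, with the centre within 1 kb of its end, namely Cmss1, Mff, Mrgbp, Mtbp, Pef1, Sfr1 and Trappc3, and for 9 the nearest protein-coding gene was a collagen. Without peaks at ends of other genes 12 collagen genes had a thapsigargin flank peak, against 24.5% of all protein-coding genes counted the same way, and 1 had a DMSO flank peak, Col1a2. With each peak given only to its nearest gene, 7 of 44 collagen genes had a thapsigargin flank peak, a higher share than the 7.26% of all genes. That setting was not set against the length classes. Median width was 1090 bp among the body peaks and 1194 bp among the flank peaks, against 1037 bp over the whole thapsigargin list. Width is not a measure of occupancy.

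Each of the 4 DMSO peaks near collagen genes overlapped a thapsigargin peak and was the narrower of its pair. They lay upstream of Col1a2, in the body of Col22a1 and at the ends of Mff and Mtbp near Col4a3 and Col14a1. Narrower DMSO peaks are a trait of the lists as a whole, whose median widths were 1037 bp for thapsigargin and 856 bp for DMSO. How many of all 803 DMSO peaks overlap a thapsigargin peak, or are narrower than it, was not counted. Neither trait of these 4 peaks can therefore be read as particular to collagen genes. The remaining 36 of the 40 distinct thapsigargin peaks had no DMSO overlap. With 803 DMSO peaks against 8619 for thapsigargin, most thapsigargin peaks anywhere lack a DMSO overlap. The share over the whole list was not counted, so the 36 cannot be read as a result about collagen genes.

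For scale, 4 stress response genes that ATF4 is known to act on had peaks at their ends in both lists. At Asns, which makes asparagine, the thapsigargin peak measured 1190 bp and the DMSO peak 1029 bp. At Trib3, a pseudokinase gene, they measured 1615 bp with thapsigargin and 954 bp with DMSO. At Chac1 the thapsigargin peak had 1487 bp and the DMSO peak 1364 bp. At Ddit3, which encodes CHOP, the thapsigargin peak had 2420 bp and the DMSO peak 1885 bp.

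Genes that act on collagen were counted in the same way. Of 18 collagen-modifying enzymes and ER chaperones, 3 had a thapsigargin peak at an end (16.7%, background 15.1%) and 0 had a DMSO one. They were P3h1, a prolyl 3-hydroxylase, P4ha1, the catalytic subunit of the prolyl 4-hydroxylase, and Plod3, a lysyl hydroxylase, with peaks of 1788, 1688 and 927 bp. The P3h1 peak was also within 1 kb of an end of AU022252 and that of Plod3 within 1 kb of an end of Znhit1. Serpinh1, the collagen chaperone HSP47, had 2 flank peaks in thapsigargin and 1 in DMSO and none at an end or in its body. Of 10 genes of procollagen export, 4 had a thapsigargin end peak, namely Sec23a of the COPII coat (2302 bp, also within 1 kb of an end of Gemin2), Klhl12, a ubiquitin ligase adaptor for large carriers (1338 bp), the ER stress factor Creb3l2 (1276 bp) and Tmem131 (780 bp). Klhl12 also had a DMSO end peak, of 804 bp.

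Outside the cell, 0 of 15 genes of procollagen processing and cross-linking had a thapsigargin end peak, 3 had a body peak and 8 a flank peak, against backgrounds of 15.1%, 10.1% and 40.0% of all protein-coding genes. Of 10 collagen receptors 2 had an end peak, Ddr2, a receptor tyrosine kinase for fibrillar collagen, whose thapsigargin peak measured 2472 bp and DMSO peak 1354 bp, and Itgb1, the common integrin β1 chain, whose thapsigargin peak measured 1434 bp. Of 10 genes of collagen breakdown 0 had an end peak. The background for end peaks is 15.1% here too, and lists of 10 or 15 genes are too short to read a difference from it.

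**Figure D4:**
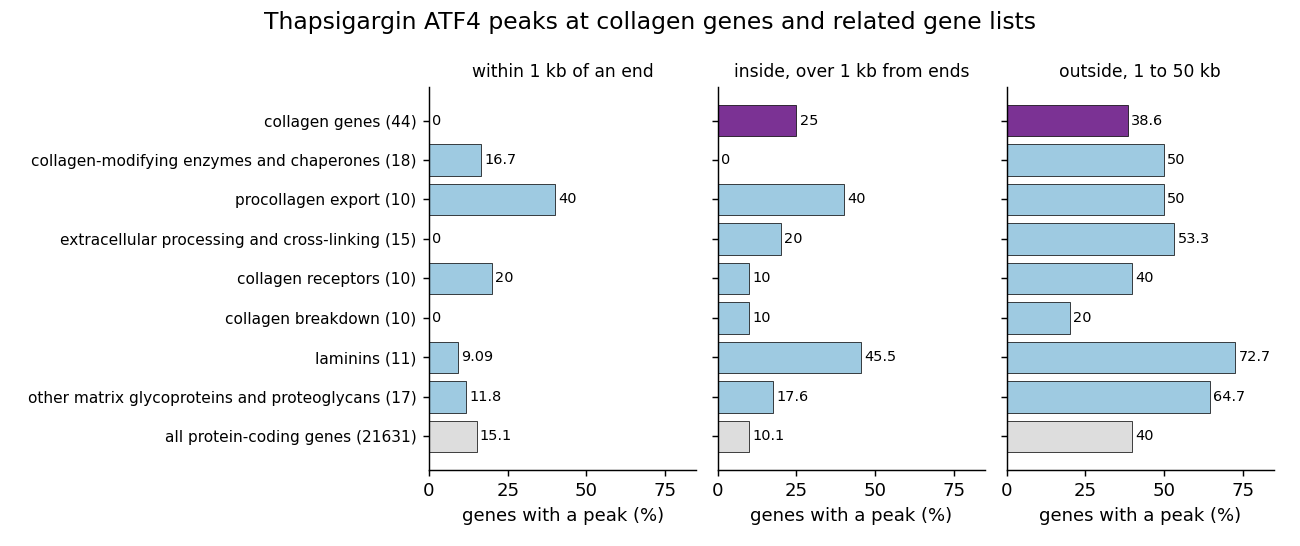
Bars give the percentage of genes with a thapsigargin ATF4 peak at an end, in the body and in the flank, for collagen genes (purple), 7 related lists (blue) and all protein-coding genes (grey), with the number of genes in brackets. Collagen genes are at 0% for ends, 25.0% for bodies and 38.6% for flanks, and all protein-coding genes at 15.1%, 10.1% and 40.0%.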

How the data were processed

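The authors deposited 1 ATF4 peak list per treatment (chromosome, start and end, with no score, height, p or q). Per the submitters' processing notes the build was mm10 and the tools were MACS2 2.2.7.1, Trim Galore 0.6.10 and Bowtie2, with no role stated. Not given in the sources used here are thresholds, a control library and how replicates were combined. Depth is unknown, so a longer list can reflect deeper reads or a looser threshold. Nothing in the labels says whether replicates were separate cultures. Files of 8 groups were not analysed here.

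Gene spans came from a RefSeq table of GRCm38.p6, which mm10 corresponds to; strand and starts came from its promoter table. Printed coordinates count from 1. A peak was placed by its centre: at an end (within 1 kb of either end of the gene's span), in the body, or in the flank (1 to 50 kb outside). Length class shares were summed over the 44 genes. Related lists were typed by hand and matched by symbol.

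The members, lists and motifs were chosen with earlier results of these data known. By rule, every collagen gene with a peak was named, and of the related lists up to 6 genes with an end peak. No test was run. Alternatives were other windows (500 bp, 3 and 5 kb), flanks (20 and 100 kb), peak overlap, wider peaks, merging within 500 bp, nearest gene, length deciles and all gene types. Listed transcription starts and leaving out peaks at other genes' ends were added after seeing the data, as were all gene types for bodies and flanks. Scripts ran in Python 3.11.15 with scipy 1.17.1, pandas 2.3.3, numpy 2.4.6 and, for plots, matplotlib 3.10.9. The placing of peaks was tested on simulated data, where 200 of 200 planted peaks fell in their zone.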

Additional observations from a re-analysis of the deposited data

How the results depend on the processing

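No paired analysis was possible because each treatment has a single list, so no replicate could be left out either. Of 60 alternative values, 45 stayed near the main value: counts within 1.5 times (a count of 0 only if it stayed 0), densities within the Poisson interval. The 0 collagen genes with a peak at an end stayed at 0 in both lists with 500 bp, any overlap, the wider 402 DMSO and 4310 thapsigargin peaks, 803 thapsigargin peaks, merging and listed starts (16.4% of genes with such starts in thapsigargin, 1.38% in DMSO). With 500 bp, the wider peaks or 803 thapsigargin peaks a 0 could not rise, so these settings are no check of it. All gene types changed only the background share, and taking 803 thapsigargin peaks left the DMSO list as it was. Such values, fixed in advance, are among the 45. In thapsigargin the end count was 3 with 3 kb and 3 with 5 kb, and in DMSO 1 with 5 kb, against 18.6%, 21.1% and 2.03% of all genes. Flank counts were 11 in thapsigargin and 1 in DMSO with 20 kb, 26 and 5 with 100 kb, 7 and 1 with the nearest gene, and 1 in DMSO without peaks at other genes' ends, against 19.95% and 2.21%, 58.2% and 10.7%, 7.26% and 0.860%, and 3.22% of all genes. The wider peaks gave 7 body genes and 1.87 body peaks per Mb in thapsigargin, against 5.88% of all genes and 1.58 per Mb. As many thapsigargin as DMSO peaks gave 1 body gene, 6 flank genes and 0.187 body peaks per Mb in thapsigargin, against 1.30% and 5.55% of all genes and 0.297 per Mb. Fewer peaks or a shorter or longer reach change such counts by construction. Length deciles gave 6.92, 11.4 and 16.3 genes for ends, bodies and flanks in thapsigargin. A stricter score could not be used, as the lists hold none. Unknown depth limits what a missing peak means in either list.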

Other observations

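The counts below stand beside backgrounds of 15.1% of all protein-coding genes with a thapsigargin peak at an end, 10.1% in the body and 40.0% in the flank, and of 1.29%, 1.30% and 5.71% in DMSO. Of 11 laminin genes, which encode the cross-shaped glycoproteins of basement membranes, 1 had a thapsigargin peak at an end (Lamc3, 659 bp), 5 had one in the body and 8 in the flank, and in DMSO 0, 0 and 1. Their bodies held 3.88 thapsigargin peaks per Mb, and those of the collagen genes 3.55. Of 17 other matrix glycoprotein and proteoglycan genes, 2 had a thapsigargin peak at an end, 3 in the body and 11 in the flank. The 2 were Fn1, the fibronectin gene, where the thapsigargin peak measured 1450 bp and the DMSO peak 1040 bp, and Thbs1, the thrombospondin 1 gene, where the thapsigargin peak measured 344 bp. Fbn1, the fibrillin gene, had 2 body peaks and 3 flank peaks in thapsigargin and 1 of each in DMSO. These counts were not tested against the collagen genes.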
